A study of Mus musculus with 45 samples.

Results

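The voltage-gated sodium and calcium channel genes of the hippocampus were followed across 4 genotypes and 2 diets. Members were all protein-coding genes of the deposited expression table whose symbol begins with Scn, a number and a or b, or with Cacna, Cacnb or Cacng. Of 40 annotated genes that fit this rule, 34 were among the 15897 genes of the table. They comprised 7 sodium channel alpha genes, 4 sodium channel beta genes, 9 calcium channel alpha1 genes, 4 alpha2delta genes, 4 calcium channel beta genes and 6 gamma genes. The sodium alpha genes Scn4a, Scn10a and Scn11a, the calcium alpha1 gene Cacna1f and the gamma genes Cacng1 and Cacng6 were not in the table, and they were not analysed here.

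The samples were hippocampi of 45 female C57Bl/6J mice, each a separate animal, killed at 13 months of age. From 7 months of age the mice ate either standard chow (STD, 5% fat by weight and 0% cholesterol) or a typical western diet (TWD, 21% fat, 0.15% cholesterol and 35% sucrose) for 6 months. AwTw mice were littermates that carried neither transgene, and 6 were on STD and 6 on TWD. AwT+ mice (6 on STD, 6 on TWD) carried human tau with the P301L mutation under the CaMKII promoter, which is active in forebrain excitatory neurons. A+Tw mice (5 on STD, 6 on TWD) carried APPswe/PS1dE9, a mutant chimeric mouse/human APP together with human presenilin 1 lacking exon 9, driven by the mouse prion protein promoter. A+T+ mice (4 on STD, 6 on TWD) carried both. PolyA libraries were sequenced, all in a single pool according to the labels, which also assign 20 mice to batch 0 and 25 mice to batch 1. Every group had mice in both batches, although batch 0 held a single A+Tw/STD mouse. What the batches stand for is not given in the sources used here.

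A voltage-gated sodium channel is built from an alpha subunit, which forms the pore and senses voltage, and from beta subunits, which adjust gating and anchor the channel in the membrane. Voltage-gated calcium channels consist of a pore-forming alpha1 subunit, an intracellular beta subunit that carries the pore to the cell surface, and a largely extracellular alpha2delta subunit that raises surface density and, in some members, binds gabapentin. The gamma genes measured in brain mostly encode TARPs, auxiliary subunits of AMPA receptors. In the hippocampus sodium channels start and carry action potentials, while calcium channels trigger transmitter release and couple firing to signalling in dendrites and nucleus.

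Values are variance-stabilized, batch-corrected read counts on a log2-like scale, so a difference of 1 stands for a change of about 2-fold at well-expressed genes and understates it at low ones. The depth of each mouse is not known from the table, so the variation among mice is the only measure of precision. Median values per mouse ran from 8.05 to 8.31, and pairwise correlations between mice from 0.858 to 0.990. App was higher in A+ than in Aw mice by 0.90 ± 0.0476 (SE, limma adjusted p = 2.94e-19), and Prnp, whose promoter drives the A+ transgene, by 1.11 (adjusted p = 7.40e-24). Mapt differed between T+ and Tw by 0.06 ± 0.0530 (adjusted p = 0.999), so the mouse gene gives no check of the T+ label. Markers of hippocampal neurons were high, with Camk2a at 15.8 and Slc17a7 at 14.6. The choroid plexus gene Ttr had a mean value of 13.9 with an SD of 3.18 over the 45 mice. A lower value in bulk tissue can come from fewer cells of a type or from less RNA per cell, and these cannot be told apart.

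The sodium alpha genes are similar enough in sequence to matter for 50-base reads. Scn3a, Scn2a, Scn1a, Scn9a and Scn7a form a cluster on chromosome 2, between positions 65457118 (start of Scn3a) and 66784914 (end of Scn7a) of GRCm38, while Scn8a lies on chromosome 15. Over the longest transcript of each gene (GENCODE M21), 8.53% of the 50-base windows of Scn3a, 7.87% of Scn2a, 5.48% of Scn1a and 5.36% of Scn9a also occurred in a transcript of another gene. The share was 0.0527% for Scn8a and 0% for Scn7a and Cacnb3. For reads from such windows the levels of Scn1a, Scn2a, Scn3a and Scn9a rest on how kallisto divided them. Outside this cluster the highest share was 2.27%, for Cacng8. Cacng7 was listed with values identical to those of 1 other gene identifier, for which no symbol was found.

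Promoter sequence differed widely among the members whose values moved with diet. The 250 bases before a RefSeq start site (GRCm38.p6) are shown for 3 members that were lower on TWD and 1 that was higher, with CpG dinucleotides in capitals. Scn1a (chr2:66440838-66441087, minus strand) and the start of Scn2a at chr2:65668436-65668685 (plus strand) had 4 and 9 CpG. Cacna2d1 (chr5:15934441-15934690, plus strand) had 36, and Cacnb3 at chr15:98634517-98634766 (plus strand) had 23, against a median of 6 over all 32851 promoters.
Scn1a: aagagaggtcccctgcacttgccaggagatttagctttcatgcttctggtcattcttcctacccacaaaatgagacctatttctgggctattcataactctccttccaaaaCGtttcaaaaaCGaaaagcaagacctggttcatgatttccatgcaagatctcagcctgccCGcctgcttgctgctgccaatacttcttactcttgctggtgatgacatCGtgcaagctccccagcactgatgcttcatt
Scn2a: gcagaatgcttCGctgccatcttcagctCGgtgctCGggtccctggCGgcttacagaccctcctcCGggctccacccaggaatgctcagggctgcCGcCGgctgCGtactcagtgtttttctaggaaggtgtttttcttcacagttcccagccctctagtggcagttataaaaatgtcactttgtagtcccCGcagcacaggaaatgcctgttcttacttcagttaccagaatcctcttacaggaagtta
Cacna2d1: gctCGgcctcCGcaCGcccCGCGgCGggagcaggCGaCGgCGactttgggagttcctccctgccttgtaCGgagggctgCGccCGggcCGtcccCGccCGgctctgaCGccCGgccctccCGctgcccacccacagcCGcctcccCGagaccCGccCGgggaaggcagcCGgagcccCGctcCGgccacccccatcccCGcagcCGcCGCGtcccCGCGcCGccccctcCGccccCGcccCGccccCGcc
Cacnb3: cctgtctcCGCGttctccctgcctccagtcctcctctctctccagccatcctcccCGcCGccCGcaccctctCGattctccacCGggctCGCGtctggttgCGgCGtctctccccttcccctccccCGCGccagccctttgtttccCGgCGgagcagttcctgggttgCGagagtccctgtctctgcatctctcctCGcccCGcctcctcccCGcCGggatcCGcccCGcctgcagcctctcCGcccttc
Scn2a and Cacnb3 each had a second start in the table, with 2 CpG apiece. Thus both CpG-poor and CpG-rich promoters occurred among the lower members. The 36 promoters of the 25 members that were listed had a median of 11.5 CpG when the 50 bases after the start were included, against 7.0 over all promoters. The left part of the RE1 element, bound by the repressor REST, was searched as TTCAGCACC on both strands and occurred in 0 of the 36 windows and in 0.371% of all promoters. Its right part, GGACAG, occurred in 6 of the 36 and in 22.2% of all.

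Among the alpha genes, Scn8a had the highest level per transcript length, 8.63 ± 0.183 (log2 value minus log2 of the longest transcript in kilobases, SD over 45 mice). Scn8a encodes the channel that dominates the adult axon initial segment. Scn2a, a channel of excitatory neurons, followed at 7.42 ± 0.729. Scn1a, known for its role in inhibitory interneurons and in Dravet syndrome, stood at 6.25 ± 0.515 on this scale, and Scn3a, which is most active before birth, at 5.11 ± 0.556. Neighbours in this order from Scn8a to Scn3a lay further apart than the larger of their SDs. Scn7a, a sodium-sensing channel of glia, stood at 3.12 and Scn9a, the channel of pain-sensing neurons, at 2.19.

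Among the sodium beta genes, Scn2b (9.77 ± 0.137) and Scn3b (9.62 ± 0.307) differed by less than their spread, and Scn4b stood at 5.97 ± 0.267. Among the alpha1 genes, Cacna1a, the P/Q-type channel of nerve terminals, led at 7.95 ± 0.195 and Cacna1e, the R-type channel, followed at 7.76 ± 0.525, a difference within their spread. The T-type gene Cacna1h (7.51) came next. The N-type gene Cacna1b (6.97), the L-type gene Cacna1c (6.73) and the T-type genes Cacna1i (6.63) and Cacna1g (6.45) each lay within the spread of their neighbour, and the L-type gene Cacna1d followed at 5.98. Cacna1s, the L-type channel of skeletal muscle, was at 2.69 with a mean value of 5.33 on the deposited scale, and of 6 markers of skeletal muscle 3 were in the table.

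Cacna2d3 (8.27 ± 0.149) led the alpha2delta genes, ahead of Cacna2d2 (6.53) and Cacna2d1 (6.50), which were level with each other, and of Cacna2d4 (3.43). Cacnb3 (10.5 ± 0.292) led the calcium beta genes, ahead of Cacnb1 (9.58), Cacnb2 (7.69) and Cacnb4 (6.33). Among the gamma genes the order was Cacng7 (9.24 ± 0.166), Cacng3 (8.85), Cacng8 (8.57), Cacng2, also called stargazin (7.64), Cacng4 (6.84) and Cacng5 (5.51). The order depends on the transcript taken: with the median transcript length, Scn8a rose to 11.07 and Cacna1i, whose median annotated transcript is short, to 10.69, ahead of Cacna1a at 8.01.

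**Figure D1:**
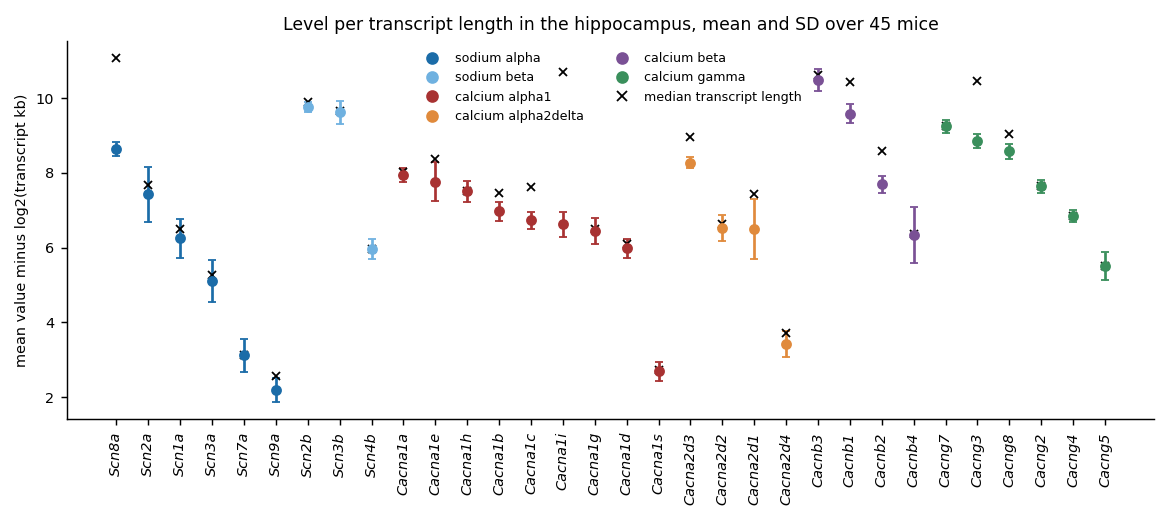
Level per transcript length of 32 channel genes by class, as mean value minus log2 of the longest transcript in kilobases, with the SD over 45 mice as bars and the level by median transcript length as crosses. Of the genes drawn, Cacnb3 stands highest at 10.5, and Scn9a lowest at 2.19.

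Values varied most between mice in Cacna2d1 (SD 0.803), Cacnb4 (0.745) and Scn2a (0.729), and least in Scn2b (0.137), Cacna2d3 (0.149) and Cacng4 (0.163).

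The first comparison asked which channel genes differed by diet irrespective of genotype. On TWD, 4 of the 7 sodium alpha genes (Scn2a, Scn1a, Scn3a and Scn7a), the R-type pore gene Cacna1e and the alpha2delta gene Cacna2d1 were lower. The calcium beta gene Cacnb3 was higher. Thus 8 of 34 members (23.5%) passed an adjusted p of 0.05 with limma, against 29.4% of all 15897 genes. By direction, 6 members were lower against a background of 13.4%, and 2 were higher against 16.0%. The share over all members was near that of the whole table. The median log2 difference was -0.02 over the members and -0.00138 over all genes, and 17 members were positive and 17 negative.

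Scn2a was the alpha gene with the largest difference. On STD its 21 values ran from 9.73 to 11.9 with a median of 11.1, and on TWD its 24 values ran from 8.54 to 11.3 with a median of 10.4. The ranges overlapped widely, with values under 9.73 on TWD only. The difference was -0.68 ± 0.189 (SE, limma adjusted p = 0.0159). In AwTw mice the group means were 11.22 ± 0.56 on STD and 10.26 ± 0.81 on TWD (SD), and in AwT+ mice 11.08 ± 0.16 and 10.46 ± 0.68. They were 10.71 ± 0.77 and 10.09 ± 0.47 in A+Tw mice, and 10.65 ± 0.48 and 10.24 ± 1.00 in A+T+ mice. The 5 A+Tw/STD values were 11.28, 9.73, 11.48, 11.00 and 10.05, and the 4 A+T+/STD values 10.57, 10.01, 10.95 and 11.08. The mean was lower on TWD in each of the 4 genotypes.

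Scn1a followed the same pattern. Its values ran from 8.65 to 10.2 (median 9.76) on STD and from 8.11 to 9.79 (median 9.10) on TWD, with wide overlap. Its difference was -0.48 ± 0.133 (adjusted p = 0.0159). Its group means, in the order AwTw, AwT+, A+Tw, A+T+ that is kept from here on, were 9.74, 9.76, 9.43 and 9.24 on STD and 9.04, 9.24, 9.04 and 9.05 on TWD. Scn3a differed by -0.46 ± 0.149 (adjusted p = 0.0241), from a median of 8.65 on STD to 8.08 on TWD. Its group means were 8.79, 8.79, 8.46 and 8.30 on STD and 8.11, 8.30, 8.12 and 8.08 on TWD. Scn7a, which shares no 50-base window with other genes, differed by -0.40 ± 0.122 (adjusted p = 0.0188). The group means of Scn7a were 6.44, 6.22, 6.09 and 6.01 on STD and 5.62, 5.88, 5.75 and 6.00 on TWD. Scn8a and Scn9a had negative differences that did not pass, with Scn8a at -0.11 ± 0.0505 (adjusted p = 0.0790) and Scn9a at -0.21 ± 0.0965 (adjusted p = 0.0874).

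The sodium beta genes Scn2b, Scn3b and Scn4b did not pass. Scn2b differed by 0.02 (95% interval -0.06 to 0.11), Scn3b by -0.16 (-0.32 to 0.00) and Scn4b by -0.10 (-0.26 to 0.05).

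**Figure D2:**
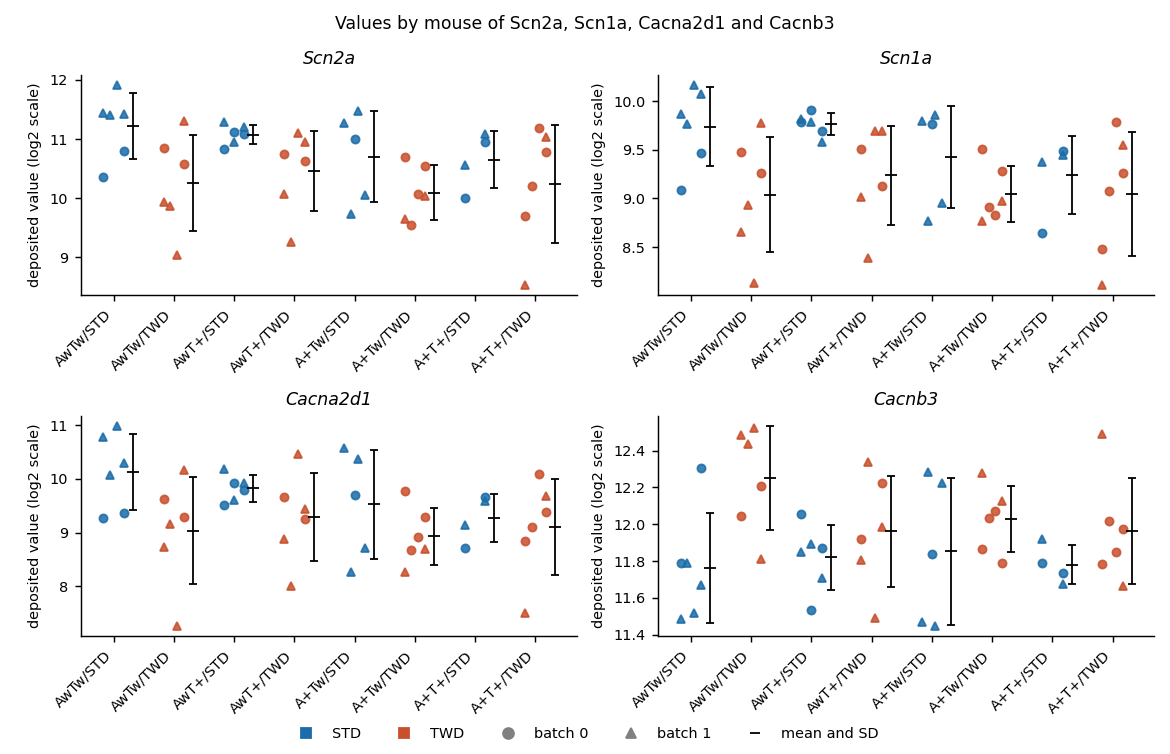
Deposited values on the log2 scale of Scn2a, Scn1a, Cacna2d1 and Cacnb3 in each mouse of the 8 groups, with STD in blue, TWD in orange, circles for batch 0, triangles for batch 1, and the mean and SD at the right of each group. The groups overlap, Scn2a, Scn1a and Cacna2d1 reach their lowest values (8.54, 8.11 and 7.26) on TWD, and Cacnb3 its highest (12.5).

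Of the 9 alpha1 genes, 1 passed. Cacna1e ran from 10.9 to 12.8 (median 11.9) on STD and from 10.4 to 12.2 (median 11.5) on TWD, and differed by -0.43 ± 0.141 (adjusted p = 0.0246). The group means were 12.19, 12.00, 11.68 and 11.55 on STD and 11.34, 11.63, 11.39 and 11.48 on TWD. Cacna1g, a T-type gene, came next with 0.25 ± 0.0979 and an adjusted p of 0.0502, which did not pass. They were 9.52, 9.49, 9.39 and 9.09 on STD and 9.69, 9.65, 9.57 and 9.61 on TWD for Cacna1g. Cacna1c differed by -0.15 ± 0.0655 (adjusted p = 0.0775). The presynaptic gene Cacna1a differed by 0.04 (95% interval -0.08 to 0.16), with group means of 11.10, 10.84, 10.86 and 10.81 on STD and 10.92, 10.88, 10.99 and 11.03 on TWD. The remaining alpha1 genes Cacna1b, Cacna1d, Cacna1h, Cacna1i and Cacna1s had differences between -0.10 and 0.13.

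Cacna2d1, the main gabapentin-binding subunit, had the second largest difference of the members, -0.64 ± 0.218 (adjusted p = 0.0288). It ran from 8.27 to 11.0 (median 9.70) on STD and from 7.26 to 10.5 (median 9.21) on TWD. Its group means were 10.13, 9.82, 9.53 and 9.28 on STD and 9.04, 9.29, 8.94 and 9.10 on TWD, lower on TWD in each genotype. It no longer passed without AwTw/TWD replicate 3 (-0.53, adjusted p = 0.0570), AwT+/TWD replicate 3 (-0.57, adjusted p = 0.0557) or A+T+/TWD replicate 1 (-0.57, adjusted p = 0.0501). Cacna2d3 differed by 0.09 ± 0.0464 (adjusted p = 0.135), with group means of 10.06, 10.08, 10.14 and 10.16 on STD and 10.16, 10.21, 10.26 and 10.14 on TWD. Cacna2d2 and Cacna2d4 differed by 0.01 and 0.07.

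The calcium beta genes diverged in sign. Cacnb3 ran from 11.4 to 12.3 (median 11.8) on STD and from 11.5 to 12.5 (median 12.0) on TWD, and was higher by 0.25 ± 0.0810 (adjusted p = 0.0223). The group means of Cacnb3 were 11.76, 11.82, 11.85 and 11.78 on STD and 12.25, 11.96, 12.03 and 11.96 on TWD. Cacnb4 differed by -0.42 ± 0.209 (adjusted p = 0.117) and Cacnb2 by -0.16 ± 0.0675 (adjusted p = 0.0688), and the means of Cacnb2 were 9.79, 9.84, 9.70 and 9.66 on STD and 9.69, 9.64, 9.50 and 9.56 on TWD. Cacnb1 differed by 0.11 ± 0.0758. 0 of the 6 gamma genes passed, and their differences ran from -0.10 (Cacng5) to 0.10 (Cacng3). Cacng7, the gamma gene with the highest level per length, had group means of 10.37, 10.40, 10.34 and 10.32 on STD and 10.54, 10.44, 10.34 and 10.31 on TWD.

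**Figure D3:**
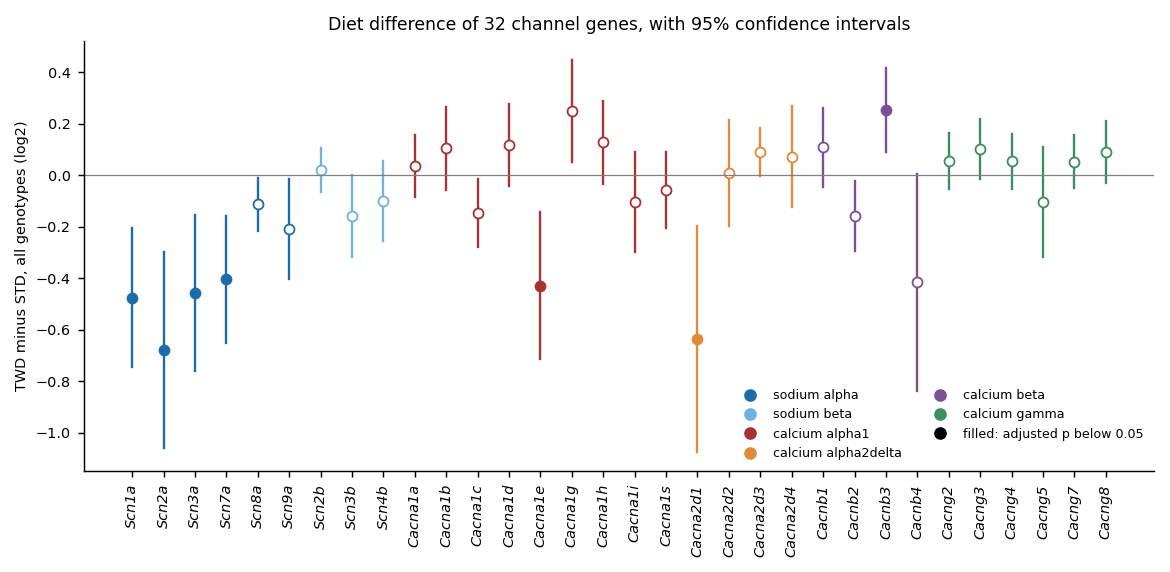
Difference of TWD minus STD over all genotypes (log2) for 32 channel genes, with 95% confidence intervals and filled points where the limma adjusted p was below 0.05. The sodium alpha genes drawn lie below 0, with Scn2a lowest at -0.68, while Cacnb3 (0.25) lies above.

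Transcript length and GC content moved with the same comparison across all genes. Genes were split into 4 bins of near-equal size. Of the 3924 genes of lowest GC content (31.0 to 45.5%), 31.1% were lower on TWD and 1.94% higher, and the bin held 7 members, of which Scn1a, Scn2a, Scn3a, Scn7a and Cacna2d1 were lower. Of the 3924 genes of highest GC content 32.7% were higher and 0.892% lower, and 2 of the 11 members there, Cacnb3 among them, were higher. Of the 3922 genes with the longest transcripts 30.1% were lower, and they included 23 of the 34 members and the 6 lower ones. When a trend over length and GC content was removed from each mouse, 2 members were lower and 1 higher, against backgrounds of 3.70% and 7.16%. Scn2a then differed by -0.38 ± 0.104 (adjusted p = 0.0264) and Scn1a by -0.17 ± 0.058 (adjusted p = 0.0459), while Cacna1d, which had not passed before, was higher by 0.28 ± 0.086 (adjusted p = 0.0351). Cacnb3 differed by 0.11 and no longer passed.

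The diet differences had greater values in batch 1 than in batch 0, which was not tested as a difference. Scn2a differed by -0.21 in batch 0 (adjusted p = 0.827) and by -1.07 in batch 1 (adjusted p = 0.0176). In batch 0 its values ran from 10.0 to 11.1 on STD and from 9.54 to 11.2 on TWD, and in batch 1 from 9.73 to 11.9 and from 8.54 to 11.3. Scn1a differed by -0.20 and -0.71, and Cacnb3 by 0.15 and 0.38 in the 2 batches. The 8 called members had the same sign in both batches, and 0 of 34 passed in batch 0, where 0 of all genes were lower and 0 higher. In batch 1, 11 members were lower against 20.6% of all genes and 3 were higher against 20.3%. A score was also computed from the deposited values, weighting genes by the main axis along which mice of the same group differed (first principal component of the residuals). Its mean was -0.66 on STD and 0.72 on TWD in batch 1 (SD 0.986 and 1.23), and -0.11 and 0.07 in batch 0. With this score as a covariate 0 members and 0 of all genes passed, and Scn2a differed by -0.14 (adjusted p = 0.652). The score was taken from values that still held the diet difference, so this fit cannot separate diet from the axis. The part of length, GC content and this axis in the diet differences was not tested beyond these values.

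**Figure D4:**
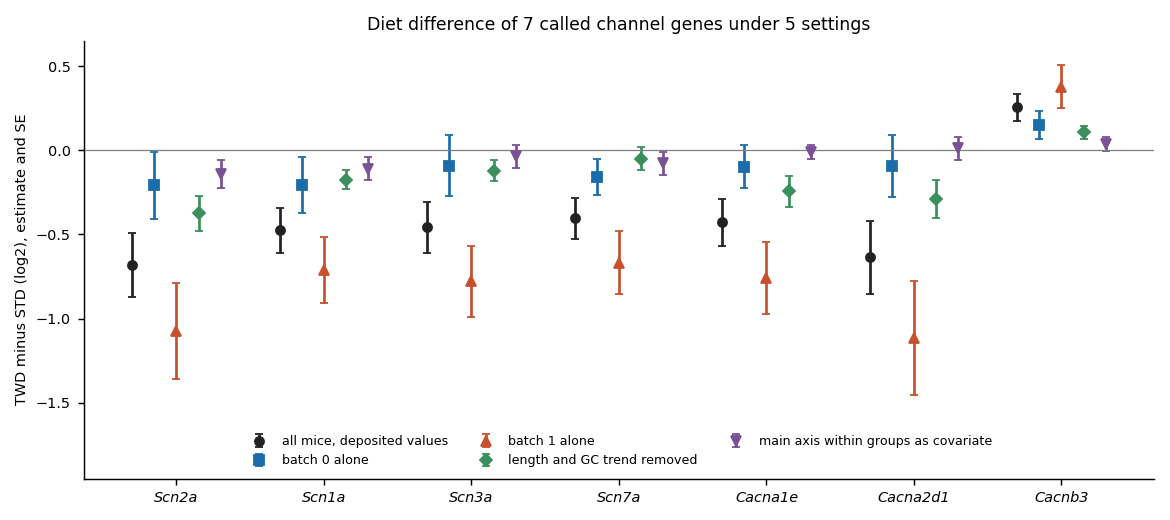
Difference of TWD minus STD (log2, with SE) for 7 called channel genes with all mice and deposited values, in each batch alone, after removal of a length and GC trend, and with the score of the main axis within groups as a covariate. Scn2a moves from -0.68 to -0.21 in batch 0 and -1.07 in batch 1, and to -0.38 and -0.14 under the other settings.

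Within genotypes, only AwTw mice gave calls. In AwTw, Scn7a (-0.82), Scn9a (-0.55) and Cacna1e (-0.85) were lower on TWD, and Cacnb3 (0.49) was higher, each with an adjusted p of 0.0498. In all 5 of 34 members passed, against 9.35% of all genes (6.01% higher, 3.34% lower). Scn9a ran from 5.43 to 6.33 (median 5.64) in AwTw/STD and from 4.69 to 5.74 (median 5.26) in AwTw/TWD, and its group means were 5.73, 5.55, 5.57 and 5.52 on STD and 5.18, 5.40, 5.5 and 5.5 on TWD. The AwTw/STD and AwTw/TWD values separated without overlap in 0 of the 34 members, against 0.201% of all genes higher and 0.151% lower. The calls lay at the edge of the threshold: leaving out any of 32 mice (33 for Scn9a) of the 45 ended them, and so did quantile normalization, centring of each mouse on its median and a fit of the compared groups alone.

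In the 3 transgenic genotypes 0 members passed in limma, and 0% of all genes did. At an unadjusted p below 0.05 AwT+ had 0 members and 1183 genes, A+Tw had 1 and 705, and A+T+ had 1 and 409. The members were Cacna2d4 in A+Tw (-0.41) and Cacna1g in A+T+ (0.52). The test of whether the diet difference itself differed from that in AwTw gave 0 members and 0% of all genes in each genotype (limma), with 0, 1 and 2 members and 639, 352 and 1001 genes at an unadjusted p below 0.05. For Scn2a this difference of differences was 0.37 for AwT+, 0.29 for A+Tw and 0.53 for A+T+. For Scn7a it was 0.49, 0.45 and 0.79, the last with a limma adjusted p of 0.560. A diet difference of the channel genes that is particular to AwTw mice was therefore not shown.

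The next comparison asked how the APPswe/PS1dE9 transgenes changed the channel genes over both diets. Scn3b was lower in A+ mice and Cacna2d4 higher, 2 of 34 members against 3.69% of all genes (0.642% lower, 3.04% higher). Of the 34 members, 28 had a negative difference, with a median of -0.10 against -0.02 over all genes. The share of all genes with a negative difference was not counted. Some of the other lists named below leaned the same way. Negative were 14 of 16 sodium channel anchoring genes, 9 of 10 AMPA receptor genes and 10 of 10 interneuron markers. So were 11 of 15 calcium channel regulators, 4 of 4 NALCN genes and 8 of 12 pyramidal and granule markers. Endothelial and mural markers had 6 of 10 negative, thalamic 5 of 8, muscle 2 of 3, striatal 4 of 8 and precursor 4 of 8. Of 12 microglia markers 0 were negative, of 10 astrocyte markers 5, of 10 oligodendrocyte markers 3 and of 10 choroid plexus markers 0. The lean was therefore not particular to the channel genes. At an unadjusted p below 0.05 stood 10 members and 2377 of the 15897 genes. Beside Scn3b and Cacna2d4 the members were Scn8a (-0.15, adjusted p = 0.111), Cacna1s (0.20), Scn2b (-0.11), Scn4b (-0.18), Cacna1h (-0.18), Cacng7 (-0.12), Cacnb2 (-0.14) and Cacna1i (-0.20), and 0 of these 8 passed. Group means of Scn8a, in the order of genotypes used above, were 12.31, 12.31, 12.14 and 12.02 on STD and 12.12, 12.14, 12.08 and 12.03 on TWD.

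Scn3b encodes a neuronal beta subunit. On STD its values ran from 11.85 to 12.23 (median 11.96) in AwTw and from 11.62 to 12.15 (median 11.79) in AwT+. The A+Tw/STD values were 11.97, 11.45, 11.99, 11.65 and 11.52, and the A+T+/STD values 11.18, 11.47, 11.45 and 11.50. All A+T+/STD mice thus lay below all AwTw/STD mice, and the A+Tw/STD mice overlapped with them. On TWD the medians, in the order of genotypes used above, were 11.72, 11.77, 11.61 and 11.46, and the ranges overlapped. Over both diets Scn3b differed by -0.28 ± 0.0796 (adjusted p = 0.0289), and in A+T+ against AwTw on STD by -0.63 ± 0.166 (adjusted p = 0.0424). In that second comparison 1 of 34 members passed, lower, against 1.32% of all genes (0.101% lower, 1.22% higher). Groups without overlap, lower in A+T+, occurred in 1 member and 1.49% of all genes. On TWD the difference of Scn3b was -0.18 (95% interval -0.48 to 0.12).

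The call of Scn3b depended on few mice. Over both diets it no longer passed without AwT+/TWD replicate 1, A+Tw/TWD replicate 2, A+T+/TWD replicate 1, A+Tw/STD replicate 2 or A+T+/STD replicate 1, with adjusted p from 0.0520 to 0.0652. For A+T+ against AwTw on STD, leaving out any of the 4 A+T+/STD mice or AwTw/STD replicates 1, 3, 4 or 5 ended the call, with differences from -0.68 to -0.57. For A+ against Aw over both diets, the difference of Scn3b was -0.23 in batch 0 and -0.42 in batch 1, with adjusted p of 0.209 and 0.0673, and -0.26 after removal of the length and GC trend (adjusted p = 0.00470). For A+T+ against AwTw on STD it was -0.43 and -0.74 in the 2 batches (adjusted p = 0.653 and 0.432) and -0.58 after that removal (adjusted p = 0.00577). The score of choroid plexus markers ran from 0.66 to 1.20 in A+T+/STD, from -1.20 to 0.98 in AwTw/STD and from -1.23 to 1.02 in A+Tw/STD. With this score as a covariate Scn3b differed by -0.50 for A+T+ against AwTw on STD (limma adjusted p = 0.281). For A+ over both diets Scn3b then differed by -0.23 (adjusted p = 0.180). All 10 of these markers were positive for A+ (median 0.94) and also for T+ (median 0.92), and 0 passed. The part of choroid plexus in the value of Scn3b was not tested.

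Cacna2d4, an alpha2delta gene best known from the retina, was expressed at a low level. On STD its values ran from 5.42 to 5.80 (median 5.64) in AwTw and from 5.45 to 6.01 (median 5.85) in AwT+. The A+Tw/STD values were 6.36, 6.35, 6.50, 6.51 and 6.19, and the A+T+/STD values 5.92, 5.80, 6.15 and 5.98. All 5 A+Tw/STD mice lay above all AwTw/STD mice, as in 1.14% of all genes. On TWD the 4 medians, in the same order, were 5.70, 6.00, 5.94 and 6.32, with overlap. Cacna2d4 was higher by 0.33 ± 0.0976 over both diets (adjusted p = 0.0436) and by 0.77 ± 0.184 in A+Tw against AwTw on STD (adjusted p = 0.0201), where 1 of 34 members passed against 0.925% of all genes (0.918% higher, 0.00629% lower). The difference over both diets was 0.28 in batch 0 and 0.35 in batch 1, neither of which passed, and leaving out any of 27 mice ended its call. In A+Tw against AwTw on STD the call was lost without A+Tw/STD replicates 2, 3 or 4 or AwTw/STD replicates 2 or 3, with differences from 0.73 to 0.78 and adjusted p from 0.0503 to 0.0835. Of 12 microglia markers 10 were higher in A+, and their score ran from 0.10 to 1.32 in A+Tw/STD and from -1.09 to -0.53 in AwTw/STD. Group means of this score, in the same order, were -0.79, -0.93, 0.72 and 0.72 on STD and -0.35, -0.56, 0.88 and 0.67 on TWD. Group means of Cacna2d4 were 5.61, 5.80, 6.38 and 5.96 on STD and 5.82, 6.01, 5.96 and 6.22 on TWD. The part of microglia in the value of Cacna2d4 was not tested.

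**Figure D5:**
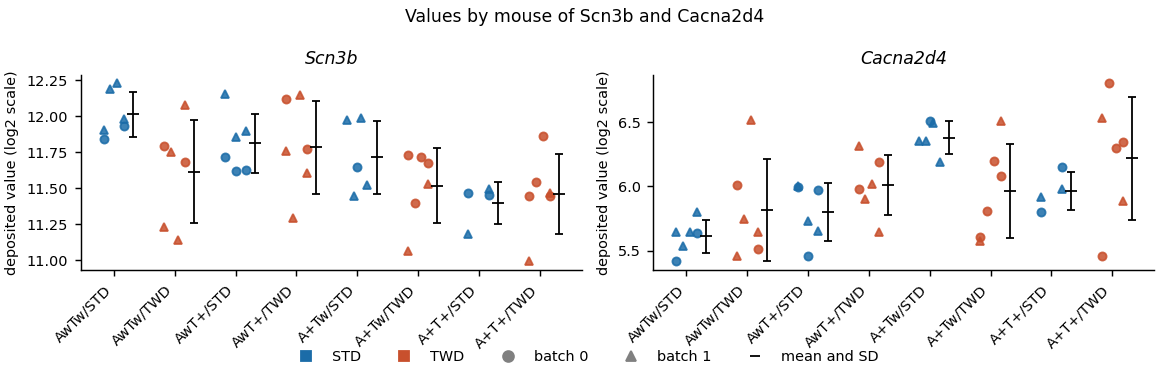
Deposited values on the log2 scale of Scn3b and Cacna2d4 in each mouse of the 8 groups, with STD in blue, TWD in orange, circles for batch 0, triangles for batch 1, and the mean and SD at the right of each group. The 4 A+T+/STD mice lie below the AwTw/STD mice in Scn3b, and the 5 A+Tw/STD mice lie above them in Cacna2d4.

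Tau P301L gave no call among the channel genes. For T+ against Tw over both diets 0 members passed in limma, 0 members and 780 genes had an unadjusted p below 0.05, and 0.0126% of all genes passed. The differences of the members ran from -0.13 to 0.16. For AwT+ against AwTw, 0 members and 0 of all genes passed on either diet, with 1 member (Cacna1a, -0.26) and 380 genes on STD and 0 members and 484 genes on TWD at an unadjusted p below 0.05. For A+Tw and A+T+ against AwTw on TWD, 0 members passed, against 0.824% (0.818% higher, 0.00629% lower) and 0.730% (0.692% higher, 0.0377% lower) of all genes, and before adjustment 1 member and 827 genes, and 2 members and 1234 genes, had a p below 0.05. The 3 genotype comparisons of a diet share their AwTw mice.

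Genes that act with these channels were taken from 4 lists, and their diet difference over all genotypes was read against the same background of 29.4%. Of 16 genes that anchor or modulate sodium channels, 3 were lower and 2 higher, with a median of -0.08. The lower ones were led by Cntn1 (contactin, which binds channels at the cell surface, -0.41, adjusted p = 0.0176) and Fgf14 (a partner of alpha subunits at the axon initial segment, -0.49, adjusted p = 0.0185). Of 15 measured calcium channel regulators and scaffolds (of 16), 4 were lower and 3 higher. Cabp1, a calmodulin-like calcium sensor, was higher by 0.35 (adjusted p = 0.0157), while Rims2 (-0.44, adjusted p = 0.0167) and Erc2 (-0.25, adjusted p = 0.0249), scaffolds of the presynaptic active zone, were lower. Of the 4 genes of the NALCN sodium leak channel, Nalcn itself was lower (-0.32, adjusted p = 0.0242). Among 10 AMPA receptor subunits and auxiliary proteins other than the gamma genes, 4 were lower and 1 higher, led by Shisa6 (-0.37, adjusted p = 0.0182), Cnih2 (0.35, adjusted p = 0.0201) and Gria3 (-0.47, adjusted p = 0.0206). The gamma genes, which encode partners of these receptors, gave 0 calls.

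Cell type markers passed in both directions with diet, against 16.0% of all genes higher and 13.4% lower. Of 12 markers of pyramidal and granule neurons 2 were higher and 0 lower, and of 10 interneuron markers 4 were higher and 2 lower, with Pvalb at 0.40 and Gad2 at -0.62. Of 12 microglia markers 7 were higher and 1 lower, and of 10 astrocyte markers 2 were higher and 3 lower. Of 10 oligodendrocyte markers 4 were higher and 0 lower, of 8 precursor markers 4 were higher and 1 lower, and of 10 endothelial and mural markers 2 were higher and 2 lower. Of 8 striatal markers 1 was higher and 2 lower, of 8 thalamic markers 0 were higher and 2 lower, and 0 of 10 choroid plexus markers and 0 of 3 muscle markers passed. Their part in the diet differences of the channel genes was not tested.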

How the data were processed

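PolyA RNA of 45 hippocampi was made into TruSeq stranded libraries and sequenced as 50-base single reads. According to the study's methods and the submitters' processing notes, the authors used FastQC 0.11.8, Trimmomatic 0.38, Bowtie2 2.2.3 to remove rRNA and mitochondrial reads, and kallisto 0.44.0 on mouse (mm10) transcripts. The authors summed estimates per gene, kept genes with a mean count above 10, applied the variance-stabilizing transformation of DESeq2 1.22.2 and removed batch with limma 3.38.3, so the deposited values are on a log2-like scale and batch means are equal for every gene.

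Here, genotype, diet and batch came from the labels. The test was that of limma 3.58.1 under R 4.3.3 (empirical Bayes with a mean trend, batch as a covariate, two-sided, Benjamini-Hochberg over all 15897 genes, threshold 0.05). Effects over all mice came from 1 model with additive terms for genotype, diet and batch, and a fit of 8 groups gave the other contrasts. The fits were tested on simulated data with noise drawn separately for each gene. That test does not cover variation shared between genes, such as the within-group axis above. Length, GC content and symbols (15695 genes) came from GENCODE M21. Values of every group are given for members that passed in a contrast of genotype or within a genotype, the 10 with the smallest p by diet and the highest of each class. Partner genes named are those that passed by diet, at most 3 per list. Counts cover all 34 members, and some of them are not reported by name here. Members and lists were chosen with earlier results of these data known. Replicate numbers follow the order of deposit and pair no mice. Tables were handled in Python 3.11.15 with pandas 2.3.3, and plots drawn with matplotlib 3.10.9.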

Additional observations from a re-analysis of the deposited data

Results flagged for a closer look

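The values of 17 members in 8 groups were searched for a mouse that stood apart from its group, with the gap to the nearest mouse divided by the range of the group. Of 136 combinations 8 (5.88%) passed Dixon's critical value, in 7 different mice, and chance alone gives about 1 in 20. Scn1a was lowest in A+T+/STD replicate 2 at 8.65 (next value 9.37), and Scn3b was lowest in A+T+/STD replicate 1 at 11.2 (next 11.5). Cacnb3 was highest in AwTw/STD replicate 6 at 12.3 (next 11.8), and the same mouse was highest in Cacng7 at 10.8 (next 10.4). Cacng7 was lowest in A+Tw/TWD replicate 3 at 9.99 (next 10.4). Cacna1a was highest in A+T+/TWD replicate 3 at 11.5 (next 11.0), Cacna2d3 in AwT+/TWD replicate 3 at 10.5 (next 10.2) and Scn8a in AwT+/STD replicate 2 at 12.5 (next 12.3). Among these mice, A+T+/STD replicates 1 and 2 and AwT+/TWD replicate 3 are also among the mice whose removal ended a call of Scn3b or Cacna2d1, as given with those genes.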

How the results depend on the processing

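Depth per mouse is unknown beyond a minimum named in the study's methods, groups hold 4 to 6 mice and batch 0 holds 8 mice on STD, so small differences could not be detected. With all genotypes, the counts of 6 members lower and 2 higher on TWD became 0 and 0 at a threshold of 0.01, 10 lower at 0.1, 0 and 0 in batch 0, 11 lower in batch 1, 0 and 0 with the within-group axis as a covariate, 2 and 1 with length and GC removed, 1 higher with GC alone removed, and 2 and 7 with length alone removed. GC alone and length alone were added after the data were seen. Leaving out each mouse gave 5 to 9 lower and 2 to 4 higher.

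In AwTw mice, 3 lower became 9 at a threshold of 0.1, 5 in batch 1, 7 with the choroid plexus covariate, and 0, with 0 higher, at 0.01, in batch 0, with quantile normalization, median centring, no mean trend, the within-group axis, label letters, each trend removal and the compared groups alone. Leaving out each mouse gave 0 to 10 lower and 0 to 7 higher.

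For A+, 1 lower became 4 with the within-group axis or GC removed, 2 with length and GC removed, and 0 at 0.01, in each batch, with quantile normalization and the choroid plexus covariate. The 1 higher became 0 in those last settings, with GC removed and with low genes filtered out, where Cacna2d4 is not tested. Leaving out each mouse gave 0 to 2 lower and 0 to 1 higher. For A+Tw on STD, 1 higher became 0 at 0.01, in each batch and with the filter (0 to 1 with mice left out). For A+T+ on STD, 1 lower became 2 with GC or length and GC removed, and 0 at 0.01, in each batch, with quantile normalization and the choroid plexus covariate (0 to 2 with mice left out). Counts of 0 stayed 0 in all other comparisons with any mouse left out.

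Signs turned in Cacna2d1 by diet with the within-group axis (0.0117) and in Scn9a in AwTw with length and GC removed (0.0309); the cause was not tested. No paired analysis was possible because replicate numbers follow the order of deposit.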
